A study of Homo sapiens with 24 samples.

Results

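DDIT4 and the sestrins SESN1, SESN2 and SESN3 encode brakes on mTORC1, the growth kinase complex at the lysosome. The 4 genes were taken from the deposited gene tables by the Entrez identifiers that map to these symbols (54541 for DDIT4, 27244 for SESN1, 83667 for SESN2 and 143686 for SESN3), and they are 4 of 25343 genes listed. RNA was measured by poly(A) RNA-seq in HCT116, a human colon cancer line, and A375, a human melanoma line, each as the wild-type parent line and as 1 knockout clone of PTDSS2, a phosphatidylserine synthase. Each genotype was given DMSO (the vehicle) or 0.1 µM DS07551382 for 24 h, in 3 libraries per group, 8 groups and 24 libraries in all. The series title calls the compound an inhibitor of PTDSS1, the other phosphatidylserine synthase, so the knockout with DS07551382 is the group in which both synthases are targeted. Cells were grown in plate wells and no group went without DMSO or compound. With 1 clone per line, an effect of the knockout and of the clone's own history cannot be told apart.

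mTORC1 drives protein synthesis and cell growth when nutrients and growth signals are sufficient. The DDIT4 protein, also called REDD1, restrains it through the TSC complex, which keeps the activating GTPase RHEB off, and the sestrins restrain it through GATOR2 and GATOR1, the regulators of the Rag GTPases that bring mTORC1 to the lysosome. SESN2 and SESN1 bind leucine, and sestrins also take part in antioxidant defence and AMPK signalling. As background, DDIT4 and SESN2 are induced in stress by transcription factors such as ATF4, p53 and, for DDIT4, HIF-1 and the glucocorticoid receptor, SESN1 is a classical p53 target, and SESN3 is a target of FOXO factors.

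The start-site regions of DDIT4 and SESN2, the pair that rose with the compound in both knockout clones, are shown first because most results below concern these genes. Each is the 250 bases before the RefSeq start site in GRCh38.p14 (the counts were made on hg19, and no position is carried over), read on the strand of the gene, and capitals mark a match to a searched motif. DDIT4 lies at chr10:72273674-72273923, + strand, and SESN2 at chr1:28259268-28259517, + strand.
DDIT4: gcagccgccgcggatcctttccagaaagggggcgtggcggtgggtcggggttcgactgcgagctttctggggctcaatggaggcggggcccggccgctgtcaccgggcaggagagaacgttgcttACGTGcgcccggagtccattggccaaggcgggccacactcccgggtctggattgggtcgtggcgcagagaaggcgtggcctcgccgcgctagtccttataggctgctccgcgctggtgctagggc
SESN2: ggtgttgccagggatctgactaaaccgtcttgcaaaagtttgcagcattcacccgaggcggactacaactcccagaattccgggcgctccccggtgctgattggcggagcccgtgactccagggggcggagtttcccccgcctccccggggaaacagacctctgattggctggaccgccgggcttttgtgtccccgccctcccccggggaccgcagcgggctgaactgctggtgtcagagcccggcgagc

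The motifs were searched on both strands in windows of 300 bases (250 before and 50 after the start). They were the C/EBP-ATF response element core TGATGNAA (in 3.62% of 35116 RefSeq promoter windows), the CRE core TGACG (24.55%), the HIF element ACGTG (21.41%), the FOXO element TGTTTAC (3.42%) and paired p53 cores, CATG and CATG with 6 bases between (0.37%). Matches of the CRE core and the HIF element can share bases. The DDIT4 window held 1 HIF element, starting 125 bases upstream of the start site, and none of the other motifs, and the SESN2 window held none of them. Of the 3 windows of SESN1, 1 held the CRE core at 2 places, starting 155 and 59 bases upstream, and the SESN3 window held no match. An absent match says only that these letters are not in the window.

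Library totals ran from 6211629 to 11688267 expected counts, with a median of 9200459. HCT116 knockout with compound was the shallowest group, with a mean total of 6887657 ± 901165 (SD, n = 3), and A375 knockout with compound the deepest, with 10483014 ± 1143277. PTDSS2 was at 27.7 to 32.2 TPM (a level scaled for gene length and library size) in HCT116 parent vehicle and at 4.6 to 6.64 TPM in its knockout, and at 18.8 to 20.6 TPM against 0.590 to 0.830 TPM in A375. The 12 colon epithelium markers summed to 4279 to 5229 TPM in HCT116 and 296 to 404 TPM in A375, with 5 and 9 of them under 1 TPM in every library. The 10 melanocyte lineage markers summed to 17.3 to 28.1 TPM in HCT116 and 387 to 538 TPM in A375, with 7 and 4 under 1 TPM. Single markers can depart from these sums. PMEL, a melanocyte marker, was higher in HCT116, at 1.96 to 4.56 TPM, than in A375, at 0.11 to 0.73 TPM. Most of the colon sum in A375 was KRT18, at 276 to 376 TPM. A lower level can mean fewer expressing cells or less RNA per cell, which bulk libraries cannot tell apart, and since no label says that replicates came from different cultures, the p-values cover library-to-library spread that may be technical.

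In every group DDIT4 had the highest level per length of the 4 genes and SESN3 the lowest. In HCT116 parent vehicle the mean levels were 34.9 ± 0.984 TPM for DDIT4, 15.2 ± 0.678 for SESN1, 9.52 ± 0.399 for SESN2 and 1.21 ± 0.260 for SESN3 (SD, n = 3). In A375 parent vehicle they were 234 ± 6.16 TPM for DDIT4, 14.2 ± 0.563 for SESN2, 8.32 ± 0.577 for SESN1 and 1.51 ± 0.0420 for SESN3. SESN1 thus stood above SESN2 in HCT116 vehicle and below it in A375, and the library ranges of neighbouring genes in this order did not overlap in any group. All 4 genes passed the filter on low counts in both lines.

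**Figure D1:**
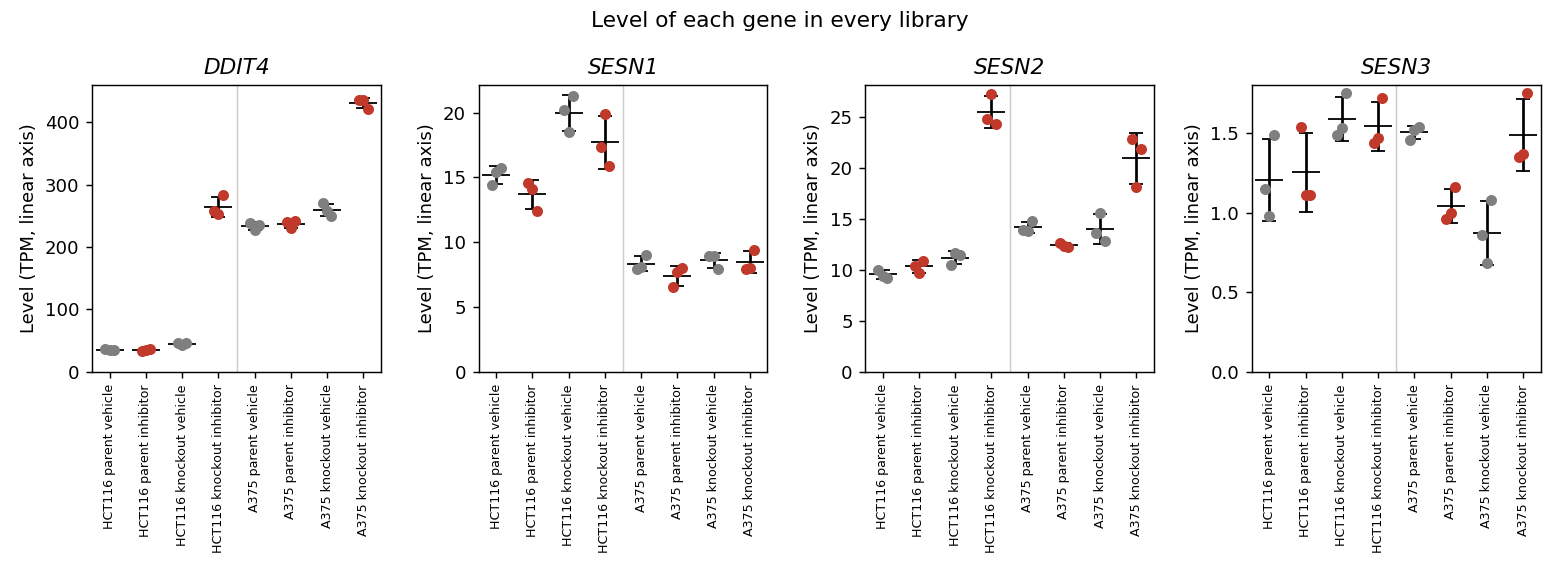
Level in TPM (linear axis from 0) of DDIT4, SESN1, SESN2 and SESN3 in the 24 libraries, with grey points for vehicle, red points for DS07551382, and black bars for the mean and SD of each group (n = 3). DDIT4 and SESN2 are highest in the knockout groups with compound, at 431.6 TPM for DDIT4 in A375 and 25.4 TPM for SESN2 in HCT116, and the SESN1 groups with and without compound overlap in both lines.

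DDIT4 rose with the compound in both knockout clones and showed no call in either parent line. In HCT116 knockout vehicle the libraries stood at 45.4, 43.3 and 45.6 TPM, and with compound at 258, 253 and 283 TPM. All 3 libraries with compound lay far above the vehicle libraries, a mean of 264.6 ± 16.2 against 44.8 ± 1.25 TPM (SD, n = 3). On counts this was 5.91-fold (95% interval 5.49 to 6.37), a log2 fold change of 2.56 ± 0.05 (SE; edgeR adjusted p = 3.182e-48), and DDIT4 ranked 18 among the rises of 13164 genes. In A375 knockout vehicle DDIT4 was at 269.9, 258 and 250.2 TPM, and with compound at 436, 437 and 422 TPM. The groups again did not overlap, and the rise was 1.63-fold (1.56 to 1.71), 0.71 ± 0.03 on the log2 scale (edgeR adjusted p = 1.347e-26), at rank 441 of 13455 genes. Of all genes tested in these comparisons 37.1% were called in HCT116 (17.1% rose) and 37.5% in A375 (18.7% rose).

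In the HCT116 parent DDIT4 held 35.9, 34.8 and 34.0 TPM in vehicle and 33.0, 34.4 and 36.6 TPM with compound, ranges that overlap. The log2 fold change was 0.00 ± 0.08, with an interval of 0.901 to 1.11-fold (edgeR adjusted p = 0.9994). In the A375 parent the values were 239, 227 and 236 TPM in vehicle and 240.3, 230.2 and 241 TPM with compound, and the interval was 0.976 to 1.08-fold (0.04 ± 0.04; edgeR adjusted p = 0.9081). Of the 4 genes 0 were called in either parent by edgeR, DESeq2 or limma-voom, with 0 at an unadjusted p under 0.05 in HCT116 and 1, SESN3, in A375. The share of all genes called was 0% in the HCT116 parent and 0.104% in the A375 parent, where 0.0372% rose and 0.0669% fell. The compound effect on DDIT4, knockout minus parent, was 2.56 ± 0.09 in HCT116 (edgeR adjusted p = 4.109e-34) and 0.67 ± 0.05 in A375 (edgeR adjusted p = 2.212e-17), where 24.9% and 27.3% of all genes were called and 11.1% and 13.3% differed upward.

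Without compound DDIT4 was also somewhat higher in the clones than in their parents. In HCT116 the 3 knockout vehicle libraries, at 43.3 to 45.6 TPM, all exceeded the parent vehicle libraries at 34.0 to 35.9 TPM (0.38 ± 0.07; edgeR adjusted p = 2.103e-05). In A375 they were at 250.2 to 269.9 TPM against 227 to 239 TPM (0.19 ± 0.04; edgeR adjusted p = 7.28e-05). For these clone differences 21.3% of all genes tested were called in HCT116 (10.5% higher) and 16.3% in A375 (9.54% higher). In A375 that share depends on the scaling, with 1284 genes higher and 912 lower after TMM and 821 higher and 1320 lower with library size alone. DDIT4 stayed called there at 0.15. The clone difference in A375 minus that in HCT116 was -0.20 ± 0.08 after TMM, which did not pass (edgeR adjusted p = 0.05645), and -0.23 with library size alone, which did (edgeR adjusted p = 0.02165). The clone difference and the compound effect both use the knockout vehicle libraries and are not independent.

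SESN2, the leucine-binding sestrin best known from stress responses, rose with the compound in both knockout clones, as DDIT4 did. In HCT116 knockout vehicle it was at 10.5, 11.7 and 11.4 TPM, and with compound at 24.8, 27.2 and 24.3 TPM. Every library with compound exceeded every vehicle library, a 2.28-fold rise (95% interval 2.02 to 2.57; log2 1.19 ± 0.09; edgeR adjusted p = 6.789e-19). In A375 knockout vehicle it was at 13.6, 15.6 and 12.8 TPM, and with compound at 22.8, 18.1 and 21.9 TPM. These groups did not overlap either, and the rise was 1.47-fold (1.31 to 1.65; 0.56 ± 0.08; edgeR adjusted p = 6.051e-08).

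In the parents SESN2 was not called. In HCT116 it held 9.97, 9.38 and 9.21 TPM in vehicle and 10.4, 9.64 and 10.9 TPM with compound (0.12 ± 0.10; interval 0.949 to 1.25-fold; edgeR adjusted p = 0.9994). In A375 it held 13.9, 13.8 and 14.8 TPM in vehicle and 12.7, 12.3 and 12.3 TPM with compound. Those A375 libraries did not overlap, but the difference of -0.17 ± 0.09 did not pass the test (interval 0.783 to 1.01-fold; edgeR adjusted p = 0.7663). The knockout minus parent difference in compound effect was 1.06 ± 0.13 in HCT116 (edgeR adjusted p = 1.376e-09) and 0.73 ± 0.12 in A375 (edgeR adjusted p = 2.377e-06). Between clone and parent in vehicle SESN2 gave 0.25 ± 0.10 in HCT116 (edgeR adjusted p = 0.05365) and 0.01 ± 0.09 in A375 (edgeR adjusted p = 0.9457). The HCT116 value passed the threshold without knockout vehicle replicate 1, at 0.31 (edgeR adjusted p = 0.03814), and in no other fit.

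SESN1, the sestrin known as a p53 target, showed no called response to the compound in any of the 4 cell backgrounds. In HCT116 knockout cells it was at 20.2, 18.5 and 21.3 TPM in vehicle and 17.4, 19.9 and 15.9 TPM with compound, overlapping ranges with a log2 difference of -0.17 ± 0.09 (interval 0.785 to 1.01-fold; edgeR adjusted p = 0.1597). Without knockout replicate 2 with compound this was -0.26 and called (edgeR adjusted p = 0.04738). In A375 knockout cells it was at 8.96, 8.90 and 7.94 TPM in vehicle and 7.89, 8.03 and 9.43 TPM with compound (-0.05 ± 0.12; interval 0.819 to 1.14-fold; edgeR adjusted p = 0.7797). In the parents the log2 values were -0.09 ± 0.10 in HCT116 and -0.18 ± 0.13 in A375 (edgeR adjusted p = 0.9994 and 0.8455). The knockout minus parent difference in compound effect was -0.08 ± 0.13 in HCT116 and 0.13 ± 0.17 in A375 (edgeR adjusted p = 0.7336 and 0.6567). Missing the threshold does not show that SESN1 was constant.

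What did differ for SESN1 was the HCT116 clone. Its vehicle libraries, at 18.5 to 21.3 TPM, all exceeded the parent vehicle libraries at 14.4, 15.5 and 15.7 TPM (0.41 ± 0.09; edgeR adjusted p = 0.0003642). In A375 the clone and parent overlapped, at 7.94 to 8.96 against 7.91 to 8.98 TPM (0.06 ± 0.12; edgeR adjusted p = 0.8112). The difference between the lines in this clone effect, -0.35 ± 0.15, did not pass the test (edgeR adjusted p = 0.09472). SESN1 has 3 annotated transcripts in these files, and the mean transcript length that RSEM assigns to the gene, a readout of isoform makeup, ran from 2737 to 3006 bases over the 24 libraries. The group means of that length were between 2765 ± 7.0 bases in HCT116 knockout vehicle and 2887 ± 106 bases in A375 parent vehicle (SD, n = 3). The libraries of the groups with and without compound overlapped in length in both parents and both knockouts.

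SESN3, the FOXO-linked sestrin, was the least abundant of the 4 genes and among the comparisons within a line it was called only in A375. Its libraries held 26 to 95 counts, so its errors are the widest. In A375 knockout vehicle it was at 0.860, 0.680 and 1.08 TPM, and with compound at 1.35, 1.37 and 1.75 TPM. The groups did not overlap, and the rise was 1.67-fold (95% interval 1.30 to 2.13; log2 0.74 ± 0.18; edgeR adjusted p = 0.0006341). In the A375 parent it was at 1.46, 1.52 and 1.54 TPM in vehicle and at 0.960, 1.00 and 1.16 TPM with compound, so the compound libraries were all lower. That difference, -0.52 ± 0.18 with an interval of 0.546 to 0.894-fold and an unadjusted p of 0.005044, did not pass over all genes (edgeR adjusted p = 0.5117). In A375 the knockout minus parent difference in compound effect was 1.25 ± 0.25 (edgeR adjusted p = 7.318e-05).

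Without compound SESN3 was lower in the A375 clone than in its parent. Its vehicle libraries, at 0.680 to 1.08 TPM, all lay under those of the parent at 1.46 to 1.54 TPM (-0.73 ± 0.19; edgeR adjusted p = 0.002849), a direction taken by 6.78% of all genes tested. The rise with compound brought the clone to 1.49 ± 0.225 TPM, beside 1.51 ± 0.0420 TPM in parent vehicle (SD, n = 3). Both A375 values rest on the same 3 clone vehicle libraries and are not independent. In HCT116 SESN3 was at 1.49, 1.53 and 1.75 TPM in knockout vehicle and 1.44, 1.47 and 1.72 TPM with compound (-0.05 ± 0.18; interval 0.757 to 1.24-fold; edgeR adjusted p = 0.8735). In the HCT116 parent it was at 1.15, 0.980 and 1.49 TPM in vehicle and 1.54, 1.11 and 1.11 TPM with compound (0.08 ± 0.18; edgeR adjusted p = 0.9994). The HCT116 clone difference in vehicle was 0.42 ± 0.18 (edgeR adjusted p = 0.08017), and it was called without parent vehicle replicate 3, at 0.58 (edgeR adjusted p = 0.02868). The clone difference was lower in A375 than in HCT116 by a tested -1.16 ± 0.25 (edgeR adjusted p = 0.0002904), where 17.7% of all genes were called, 9.44% higher and 8.25% lower.

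**Figure D2:**
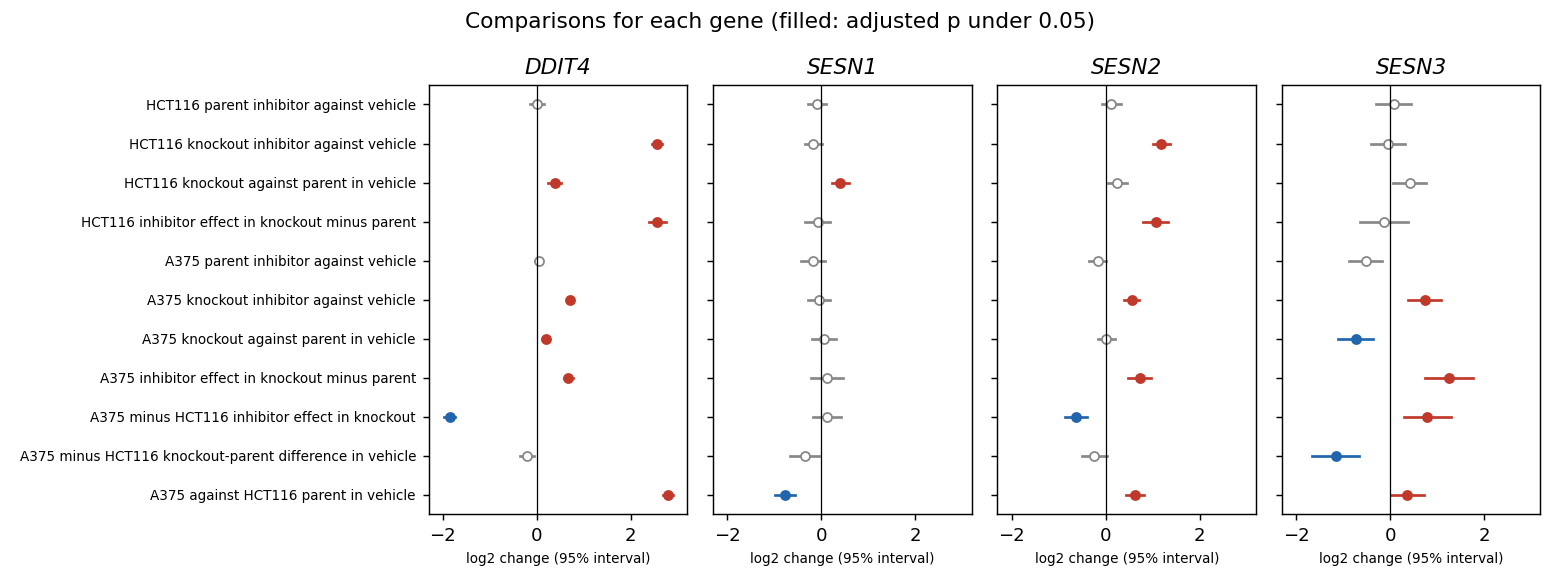
Log2 fold change, or difference of log2 fold changes, with its 95% interval for DDIT4, SESN1, SESN2 and SESN3 in the 11 comparisons; filled red and blue points have an edgeR adjusted p under 0.05 and are positive and negative, open grey points do not pass. DDIT4 and SESN2 share their calls with compound, from 2.56 for DDIT4 in the HCT116 knockout to 0.56 for SESN2 in the A375 knockout, while SESN1 has calls only for the HCT116 clone and between the parent lines.

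With vehicle, the parent lines had their largest log2 difference among the 4 genes in DDIT4. A375 parent vehicle held 227 to 239 TPM and HCT116 parent vehicle 34.0 to 35.9 TPM, a log2 difference of 2.80 ± 0.05 (edgeR adjusted p = 6.669e-71). SESN2 was higher in A375 by 0.62 ± 0.10 (edgeR adjusted p = 7.96e-09) and SESN1 lower, at -0.76 ± 0.11 (edgeR adjusted p = 5.933e-10). SESN3 stood 0.37 ± 0.18 higher (edgeR adjusted p = 0.04652), which no longer passed without each of HCT116 parent vehicle replicates 1 and 2 and A375 parent vehicle replicates 1, 2 and 3 (0.25 to 0.40), and with DESeq2, library size alone or no filter. A difference between the lines is the rule here, since 81.8% of all genes tested were called, 42.2% higher and 39.6% lower in A375.

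The knockouts of both lines also differed in the size of the response. The effect of the compound on DDIT4 was smaller on the log2 scale in A375 by 1.85 (-1.85 ± 0.06; edgeR adjusted p = 4.337e-46) and that on SESN2 by 0.63 (-0.63 ± 0.12; edgeR adjusted p = 2.46e-05), where 19.7% of all genes were called and 8.75% were lower. The effect on SESN3 was larger in A375, at 0.79 ± 0.25 (edgeR adjusted p = 0.01543), where 10.9% were higher. That SESN3 call was lost without A375 knockout vehicle replicate 2 (0.65, edgeR adjusted p = 0.07086) and without A375 knockout replicate 3 with compound (0.65, edgeR adjusted p = 0.08109). For SESN1 the difference was 0.12 ± 0.15 (edgeR adjusted p = 0.6474). On the linear TPM scale the DDIT4 gap narrows, because the lines start apart: the mean rose by 219.8 ± 16.2 TPM in HCT116 and 172 ± 13.0 TPM in A375 (SD of the difference), which was not tested. The SESN2 mean rose by 14.3 ± 1.67 TPM in HCT116 and 6.94 ± 2.88 TPM in A375.

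Ordered over the 8 groups, DDIT4 was highest in A375 knockout with compound at 431.6 ± 8.25 TPM (SD, n = 3). HCT116 knockout with compound came next at 264.6 ± 16.2 TPM and overlapped A375 knockout vehicle at 259 ± 9.99 TPM, while its libraries, at 253 to 283 TPM, all lay above A375 parent vehicle at 227 to 239 TPM. A375 parent with compound (237 ± 6.17 TPM) and vehicle (234 ± 6.16 TPM) overlapped each other, as did HCT116 parent vehicle and compound at the bottom, while HCT116 knockout vehicle stood apart from both its neighbours. For SESN2 HCT116 knockout with compound was highest at 25.4 ± 1.55 TPM, followed by A375 knockout with compound at 20.9 ± 2.50 TPM, and both stood apart from each other and from the other 6 groups. For SESN1 the HCT116 knockout groups led and the 4 A375 groups came last, overlapping one another in turn. Neighbouring groups of SESN3 overlapped at every step of the order, from 1.59 ± 0.140 TPM in HCT116 knockout vehicle to 0.873 ± 0.200 TPM in A375 knockout vehicle.

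Summed per length, the 3 sestrins had a higher sum and a larger share of SESN2 with compound than with vehicle in both knockouts, without overlap of the libraries, and a lower sum with compound in the A375 parent. In HCT116 knockout cells the sum was 32.8 ± 1.45 TPM in vehicle and 44.7 ± 3.49 TPM with compound (SD, n = 3), and the share of SESN2 was 34.1 ± 2.30% and 57.0 ± 1.05%, and that of SESN1 61.0 ± 2.31% and 39.6 ± 1.60%. The libraries did not overlap, at 32.6 to 36.8% SESN2 in vehicle and 56.0 to 58.1% with compound, so the most abundant sestrin RNA of the HCT116 clone was SESN1 in vehicle and SESN2 with compound. In A375 knockout cells SESN2 already led in vehicle with 59.5 ± 2.06% of 23.5 ± 1.68 TPM, and held 67.7 ± 3.01% of 30.9 ± 2.96 TPM with compound. In the parents the sum was 25.9 ± 0.440 and 25.3 ± 1.11 TPM in HCT116 vehicle and compound, and 24.0 ± 1.17 and 20.9 ± 0.648 TPM in A375. The libraries overlapped in the HCT116 parent and did not in the A375 parent, at 23.2 to 25.3 TPM in vehicle and 20.2 to 21.4 TPM with compound. DDIT4 stood at 1.37 ± 0.0430 times the sestrin sum in HCT116 knockout vehicle and 5.96 ± 0.780 times with compound, and at 11.1 ± 0.723 and 14.1 ± 1.61 times in A375. These sums are descriptions without a test of their own.

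**Figure D3:**
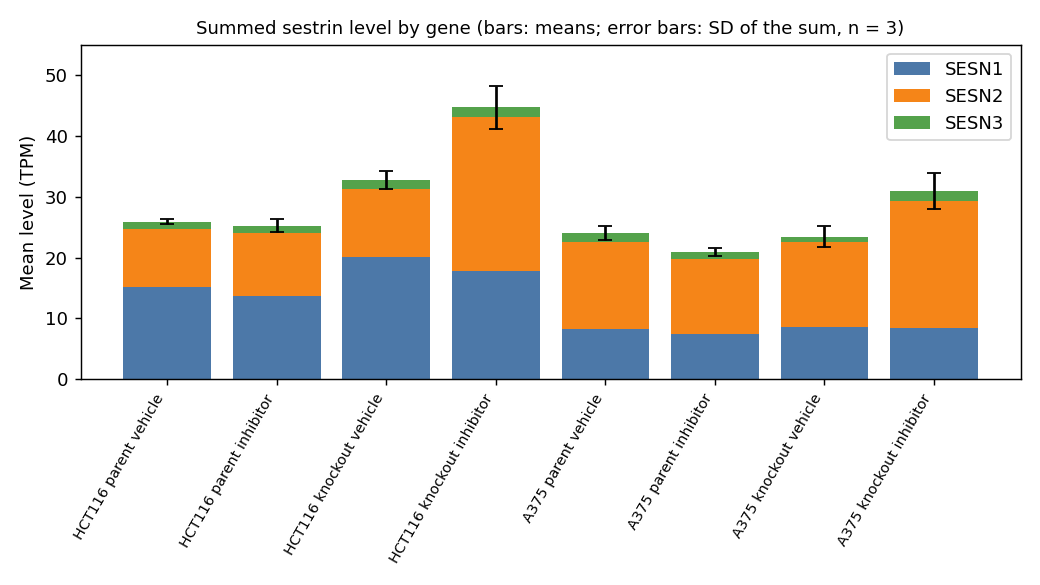
Mean level in TPM (bars from 0, linear axis) of SESN1, SESN2 and SESN3 stacked for each of the 8 groups, with the SD of the summed level (n = 3). The sum is largest in HCT116 knockout with compound, at 44.7 TPM, where SESN2 makes up 57.0% of it against 34.1% in the same clone with vehicle.

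The levels of DDIT4 and SESN2 were correlated over the 24 libraries, a pattern that contains the group differences given above. With log2 CPM (counts scaled to library size) of each gene centred on the mean of its line, Pearson's r over the 24 libraries was 0.963, and it was 0.988 within the 12 HCT116 libraries and 0.909 within the 12 A375 libraries. The other 5 pairs of members had r between 0.309 and 0.383 over the 24 libraries. The libraries share groups and the compound, so these values describe the pattern and carry no test. Whether DDIT4 and SESN2 vary together among the libraries of a group was not tested. Genes with a mean of at least 8 CPM in both lines were ranked by likeness to each member in the same way, over about 9033 genes. Closest to DDIT4 were PSAT1, a serine synthesis enzyme (0.985), AARS1, the alanyl-tRNA synthetase (0.985), MELTF, a transferrin family protein (0.984), and ASNS, asparagine synthetase (0.984), and 127 genes exceeded 0.9. For the named neighbours of DDIT4 the values were 0.994 to 0.998 within HCT116 and lower, 0.849 (ASNS) to 0.977 (MELTF), within A375. Closest to SESN2 were MELTF (0.973), the pseudokinase TRIB3 (0.968), the cystine transporter SLC7A11 (0.964) and DDIT4 itself (0.963), and 96 genes exceeded 0.9. The values for these neighbours of SESN2 were also lower within A375, at 0.895 to 0.941, than within HCT116, at 0.973 to 0.988. No gene exceeded 0.9 for the other members. Closest to SESN1 were MBNL3 (0.815), an RNA-binding protein, the glutamate transporter SLC1A3 (0.791), the myosin MYO6 (0.779) and CTTN (0.777), a regulator of actin, with lower values within A375 than within HCT116. Closest to SESN3 were the homeobox gene TGIF1 (0.762), CLMN (0.752), the nuclear receptor cofactor NRIP1 (0.748) and the AMPK subunit PRKAG1 (0.745).

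**Figure D4:**
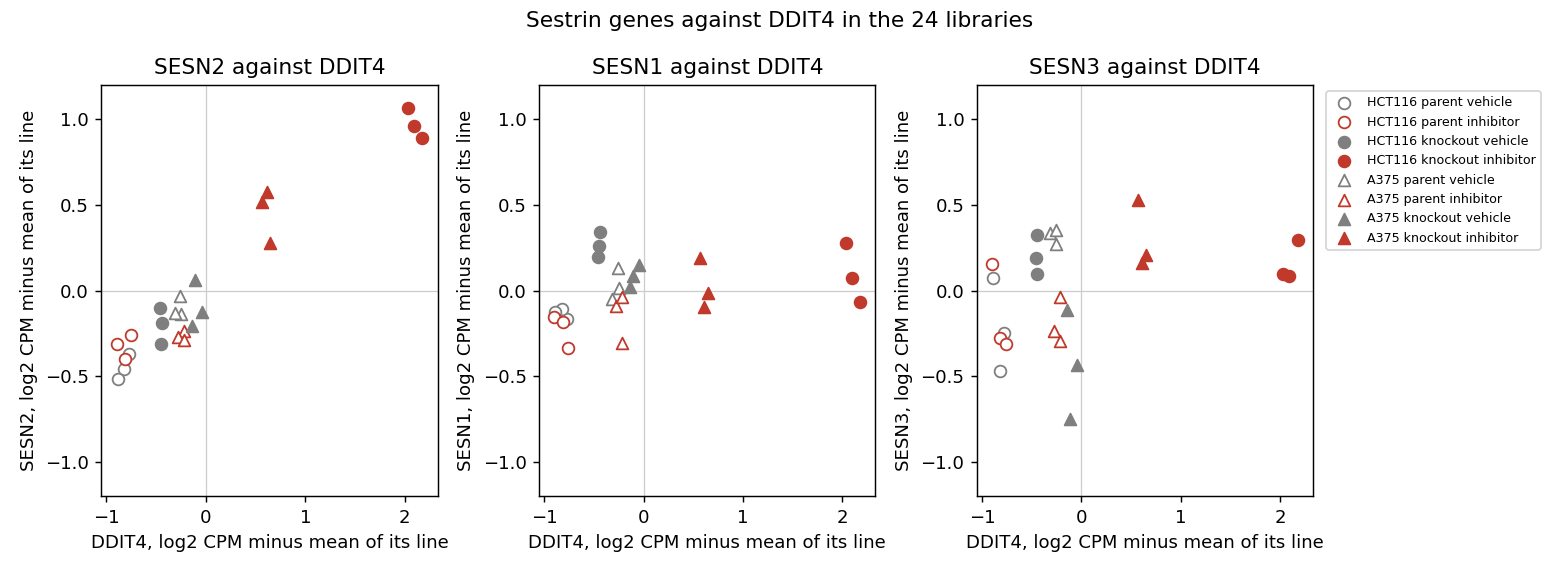
Log2 CPM of SESN2, SESN1 and SESN3 against that of DDIT4 in the 24 libraries, each gene centred on the mean of its line; circles are HCT116, triangles A375, filled symbols knockout, open symbols parent, grey vehicle and red compound. SESN2 follows DDIT4 along a diagonal (r = 0.963), with the knockout libraries with compound at the upper right, while SESN1 and SESN3 spread without one (r = 0.309 and 0.312).

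The rest of the mTORC1 pathway was described from gene lists, by how many tested members rose or fell in the knockouts with compound and by the median, without a test of the list. Over all genes tested 17.1% rose and 20.1% fell in the HCT116 knockout (median log2 fold change 0.00), and 18.7% rose and 18.8% fell in the A375 knockout (median 0.01). The core complexes had few calls in HCT116. Of 5 mTORC1 subunits 0 rose and 1 fell (median -0.03), of 4 genes of the TSC complex and RHEB 0 were called (median -0.05), of 13 Rag GTPase, Ragulator and folliculin genes 0 were called (median -0.01), and of 7 GATOR2 and arginine sensing genes 1 fell (SEH1L at -0.16 ± 0.05). The mTORC1 subunit was MTOR itself, at -0.11 ± 0.04 (edgeR adjusted p = 0.04532), a call lost in 8 of 13 other fits, all chosen after seeing the data, and that of SEH1L was lost without knockout vehicle replicate 2 (-0.12) or knockout replicate 1 with compound (-0.14).

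In the A375 knockout 37.5% of all genes tested were called, 18.7% up and 18.8% down, and some genes of the amino acid arm were among them. Of the 13 Rag GTPase, Ragulator and folliculin genes 6 rose and 0 fell (median 0.21), among them FNIP1, a folliculin partner, at 0.33 ± 0.06, RRAGC at 0.25 ± 0.06 and RRAGA at 0.21 ± 0.04. By the test of A375 minus HCT116, 3 of the 13 differed upward and 0 downward: FNIP1 at 0.31 ± 0.10 and RRAGC at 0.43 ± 0.11, and FNIP2, named after its value was seen, at 0.61 ± 0.17 (edgeR adjusted p = 0.01597, 0.002997 and 0.004725). Of all genes in that test 10.9% differed upward and 8.75% downward. RRAGA, at 0.13 ± 0.08, did not pass that test (edgeR adjusted p = 0.261). SEC13, which GATOR2 shares with the coat of vesicles that leave the endoplasmic reticulum, rose by 0.39 ± 0.04 and SEH1L was at -0.33 ± 0.05. Of the 7 GATOR2 and arginine sensing genes 2 rose and 1 fell, of 7 GATOR1, KICSTOR and SAMTOR genes 0 were called, and of 5 mTORC1 subunits 1 rose, AKT1S1, an inhibitory subunit, at 0.21 ± 0.04. Of 4 TSC complex and RHEB genes 1 fell, RHEB at -0.10 ± 0.04, a call lost with library size alone, no filter, DESeq2, and without knockout vehicle replicate 3 (-0.09) or knockout replicate 1 with compound (-0.07). Of 7 AMPK subunits and STK11 genes 1 fell in HCT116, and 2 rose and 2 fell in A375, with PRKAG2 at -0.53 ± 0.07 and -0.49 ± 0.08.

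Among 14 effectors of mTORC1 8 rose and 3 fell in HCT116 (median 0.10), and 6 rose and 1 fell in A375 (median 0.07). PDCD4, an inhibitor of translation that S6 kinase marks for destruction, rose by 0.92 ± 0.08 and 0.45 ± 0.05, and GRB10, an adaptor that is phosphorylated by mTORC1 and dampens insulin signalling, by 0.64 ± 0.07 and 0.70 ± 0.08. EIF4EBP1, the translation repressor that mTORC1 inactivates, rose by 0.52 ± 0.06 in HCT116. On the list of the DDIT4 paralog and other brakes on mTORC1 or AKT, 6 genes were tested in each line, not necessarily the same ones. Between the parent lines in vehicle, the paralog DDIT4L was lower in A375 (-8.68 ± 0.68) and TXNIP higher (8.025 ± 0.444). With compound 2 of the list rose and 3 fell in HCT116, and 2 rose and 1 fell in A375, with TRIB3 at 1.54 ± 0.06 and 0.66 ± 0.04. With DESeq2, 1 of these rose in HCT116, and 1 rose and 0 fell in A375, as in some fits with a library left out. RNA levels do not measure the activity of the complex, which acts through phosphorylation.

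Lists of genes under the regulators known for DDIT4 and sestrins moved as follows. Of the ATF4 and CHOP axis 16 of 20 genes rose and 2 fell in HCT116 (median 0.80), with SLC7A11 at 2.13 ± 0.05, ASNS at 1.83 ± 0.04 and PSAT1 at 1.32 ± 0.04, and 15 of 21 rose and 4 fell in A375 (median 0.38), with SLC7A11 at 1.04 ± 0.03 and the transcription factor CEBPB at 0.93 ± 0.05. The falls in HCT116 were the eIF2α kinase genes EIF2AK2 and EIF2AK4, which sit upstream of ATF4, and those in A375 were EIF2AK4, ATF5 and the paired amino acid transporter genes SLC7A5 and SLC3A2, all named after their values were seen. Of the FOXO axis 9 of 12 rose and 1 fell in HCT116 (median 0.42) and 8 of 12 rose and 1 fell in A375 (median 0.35), with the cyclin gene CCNG2 at 0.77 ± 0.10 and 1.09 ± 0.10, although SESN3 rose in A375 alone among the called values and its effect differed between the lines as given above. Of the p53 axis 11 of 24 rose and 4 fell in HCT116 (median 0.13), and 11 of 24 rose and 2 fell in A375 (median 0.08), with the p53 target PLK2 at -0.95 ± 0.04 in A375. Without A375 knockout vehicle replicate 3, 6 p53 axis genes rose. SESN1, itself a p53 target, was not called in either.

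Of the HIF axis 6 of 14 rose and 2 fell in HCT116 (median 0.19), and 7 of 13 rose and 3 fell in A375 (median 0.37), with NDRG1 at 1.17 ± 0.06 and 0.68 ± 0.05 and the glucose transporter gene SLC2A1 at -0.78 ± 0.05 in HCT116. Of the glucocorticoid receptor axis 5 of 7 rose and 0 fell in HCT116 (median 0.37), with TSC22D3 at 2.49 ± 0.14 and KLF9 at 1.37 ± 0.13, and 2 of 7 rose and 1 fell in A375 (median 0.12), with KLF9 at 0.73 ± 0.05 and the receptor cochaperone gene FKBP5 at -0.29 ± 0.07. Of 10 sestrin partners in redox defence 3 rose and 1 fell in HCT116 and 5 rose and 1 fell in A375, with SQSTM1, the autophagy receptor, at 0.54 ± 0.03 and 1.27 ± 0.03 and TXNRD1, thioredoxin reductase, at 0.26 ± 0.03 and 0.47 ± 0.03. Without A375 knockout vehicle replicate 2, or with DESeq2, 3 of these rose in A375. Some genes stand on more than 1 list (TRIB3, ULK1 and PIK3IP1), and GDF15, at 1.68 ± 0.05 in HCT116, is held by the p53 list and is also known as an ATF4 target. Of the colon epithelium markers 2 rose and 4 fell among 6 tested in HCT116, with KRT18 at -0.41 ± 0.03, and of the melanocyte markers 3 rose and 0 fell among 5 in A375, with ERBB3 at 0.51 ± 0.03. Among the marker genes of the other lineage 1 of 3 melanocyte markers rose in HCT116 and 2 of 2 colon markers fell in A375. The part of these lists in the changes of DDIT4 and the sestrins was not tested.

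**Figure D5:**
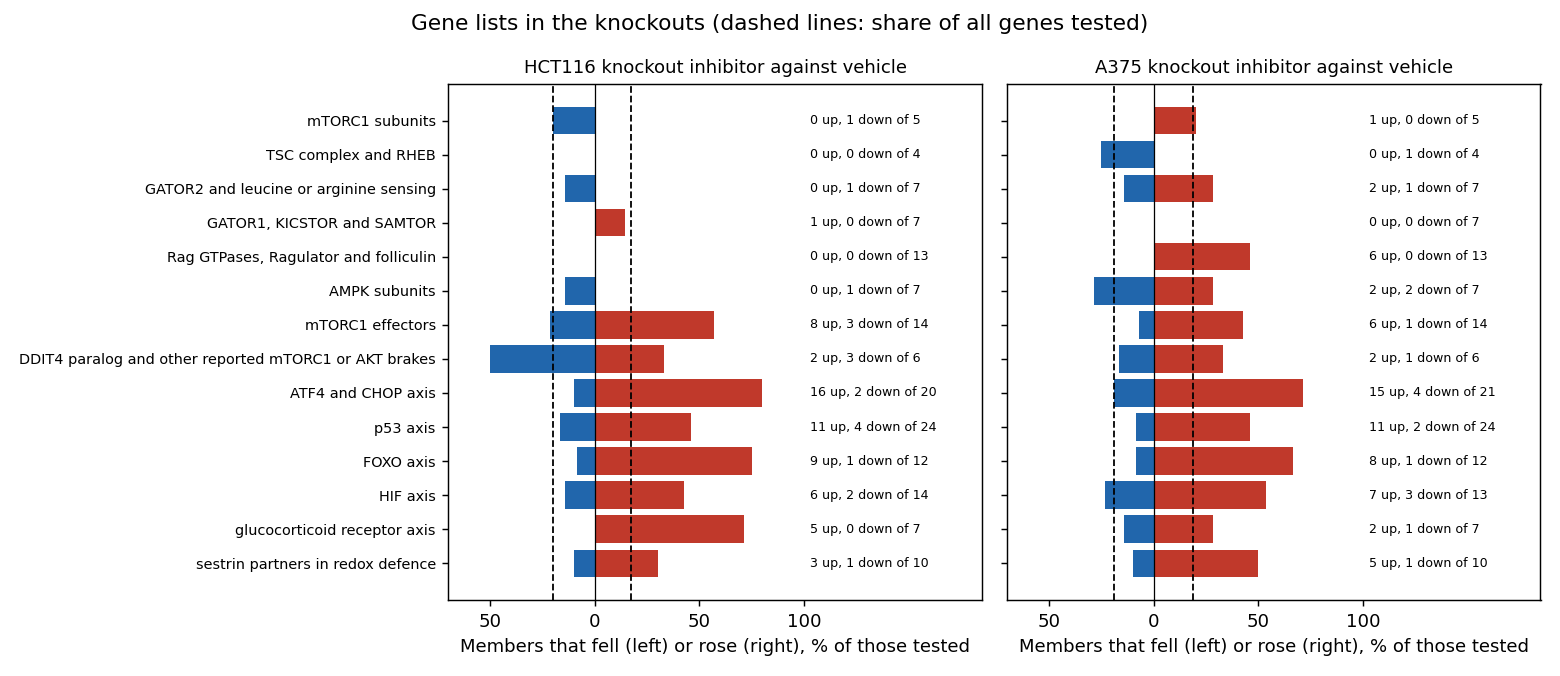
Share of the tested members of each gene list that rose (red, to the right) or fell (blue, to the left) with compound in each knockout, edgeR adjusted p under 0.05, with the shares of all genes tested as dashed lines and the counts at the right. The ATF4 and CHOP axis has the largest share of rises in both panels, 16 of 20 and 15 of 21 genes, and the Rag GTPase list has 0 calls in HCT116 and 6 rises in A375.

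In the parent lines almost no list member was called. Of all 16 lists, markers included, 0 members were called by edgeR in the HCT116 parent and 1 in the A375 parent, on the ATF4 and CHOP axis, where PSAT1, named after its value was seen, rose by 0.15 ± 0.03 (edgeR adjusted p = 0.001751) and the list median was 0.05. The share of genes called in those comparisons was 0% and 0.104%.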

How the data were processed

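RNA levels were analysed in 24 libraries of 8 groups. Per the submitters' processing notes, reads were processed with STAR 2.4.2a and RSEM 1.2.23 on hg19; annotation release, strand setting and filters were not given in the sources used here, so antisense reads cannot be separated. Per the file headers, the deposited expected counts are gene-level RSEM estimates, the deposited TPM values are scaled for length and library size, and the mean transcript length per gene (other values) is also RSEM's. All 96 expected counts of the 4 members were whole numbers. Of 25343 genes 25220 matched a symbol in a RefSeq table (GRCh38.p14, names only), and 123 did not. DDIT4 and SESN2 have 1 transcript in the files, SESN3 2 and SESN1 3.

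Expected counts were rounded, scaled with TMM and filtered with edgeR's default filter (minimum count 10, minimum total 15). Each line (12 libraries) was fitted with a mean per group in edgeR 4.0.16 (R 4.3.3), and all 24 libraries together for comparisons between lines. The quasi-likelihood F test was two-sided with robust dispersion, and p-values were adjusted by Benjamini-Hochberg over all genes tested. Adjusted p under 0.05 counts as a call; SE is the log2 fold change over the square root of F. The members and lists were chosen with earlier results of these data known. Named list genes are up to 3 per list and line with the smallest adjusted p among those called. Other settings tried were no filter, scaling by library size alone or by DESeq2 size factors, DESeq2 1.42.0, limma-voom (limma 3.58.1), only the groups compared, replicate number as a block, and leaving out each library. For likeness, the 4 named genes with the highest correlation are given, skipping unnamed loci. TPM group values are means with SD. Depth is given with the results. Some list genes that the rule would name are not reported here.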

Additional observations from a re-analysis of the deposited data

Results flagged for a closer look

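The differences below are those in which an effect on a member differed between groups by a test of the difference itself (edgeR adjusted p under 0.05). In HCT116 the compound effect in the clone less that in its parent was 2.56 for DDIT4 and 1.06 for SESN2. In A375 the same difference was 0.67 for DDIT4, 0.73 for SESN2 and 1.25 for SESN3. The compound effect in the A375 knockout minus that in the HCT116 knockout was -1.85 for DDIT4, -0.63 for SESN2 and 0.79 for SESN3. The clone difference in vehicle in A375 minus that in HCT116 was -1.16 for SESN3. For SESN3 in A375 the compound libraries lay below the vehicle libraries in the parent and above them in the knockout without overlap, on 26 to 60 counts per library in the vehicle groups. Groups of 3 libraries were too small for a search for single outlying libraries.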

How the results depend on the processing

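The calls of DDIT4 and SESN2 with compound in both knockouts, and their differences from the parents and between the lines, held with the same direction in each alternative and with each library left out. In the HCT116 knockout DDIT4 ran from 2.52 to 2.60 and SESN2 from 1.13 to 1.24 with a library left out, and in the A375 knockout DDIT4 from 0.68 to 0.74, SESN2 from 0.50 to 0.65 and SESN3 from 0.60 to 0.92. Some other calls depended on the setting. SESN3 between the parent lines (0.37) was not called with library size alone (0.33), no filter (0.36) or DESeq2 (0.37), and ran from 0.25 to 0.53 with a library left out. The clone difference of DDIT4 between the lines (-0.20) was called with library size alone (-0.23), and ran from -0.23 to -0.17 with a library left out, being called without A375 parent vehicle replicate 2 or A375 knockout vehicle replicate 1. With a library left out, the compound effect on SESN3 between the knockouts ran from 0.65 to 0.97, SESN1 in the HCT116 knockout from -0.26 to -0.10, and the HCT116 clone differences of SESN2 and SESN3 from 0.20 to 0.31 and from 0.30 to 0.58. The cause was not tested.

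Over all genes, the HCT116 parent gave 0 calls, against 4 with no filter, 1 with DESeq2, 4 with only the groups compared and 0 to 2 with a library left out, with 530 genes at an unadjusted p under 0.05 and 0 by limma-voom. The A375 parent gave 14 calls, and 9 to 15 with a library left out (9 without vehicle replicate 3). DESeq2 called 1798 genes for the HCT116 clone difference against 2804 with edgeR, and 1371 against 2196 in A375. The replicate block gave 1 call in the HCT116 parent, 4973 against 4889 in the HCT116 knockout, and changed no call of a member. Replicate numbers did not pair the libraries: correlations of deviations between same-numbered libraries ran from -0.272 to 0.132 in HCT116 and from -0.197 to 0.143 in A375, and 2 of 12 libraries in each line correlated best with a library of their own number. Library size alone moved the split of higher against lower genes for the clone difference between the lines from 1382 and 1208 to 1092 and 1469, and in the A375 parent from 5 and 9 to 3 and 9. For the list genes named, an added check, chosen after seeing the data, 30 values lost their call and 893 kept it, with 0 reversals. Of the list counts 74 moved by over 1.5 times under some setting. Apart from the rises of the p53 and redox lists in A375, given with those lists, these were counts of 0 to 2 members that moved by 1. SESN3, with 26 to 95 counts a library, is the member whose depth limits it most.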
